A study of Mus musculus with 24 samples.

Results

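Chromatin accessibility was examined at 10 genes of the Toll-like receptor (TLR) pathway in germinal centre (GC) B cells of 4 genotypes. The genes were Tlr1, Tlr2, Tlr4, Tlr6, Tlr9, Cd180, Ly86, Myd88, Irak4 and Unc93b1. Members were all consensus ATAC-seq peaks that overlapped a gene body in GENCODE, on mm10 (GRCm38), extended by 20 kb on each side, which gave 64 of 65483 peaks. The windows held 17 peaks for Cd180, 11 for Ly86, 8 for Unc93b1, 6 each for Tlr1, Myd88 and Irak4, 4 for Tlr9, 3 each for Tlr4 and Tlr6, and 1 for Tlr2. The peak at the start of Tlr1 also lay in the Tlr6 window and was counted once, under Tlr1.

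ATAC-seq measures open DNA by the fragments that a transposase cuts from it. GC B cells were sorted from the spleens of mice, described as at least 8 weeks old and on a C57BL/6J background, 10 days after immunization with sheep red blood cells (SRBC), and 60000 live cells were used per library. All 4 genotypes, WT included, carried the Cγ1-Cre allele, a recombinase made by B cells that transcribe the IgG1 constant region, so deletion is limited to activated B cells and need not be complete in them. Against this shared background, WT mice (4 libraries) kept both copies of each target gene, C mice (4 libraries, C_het_KO) had 1 conditional copy of Crebbp, K mice (4 libraries, K_het_KO) had 1 conditional copy of Kmt2d, and CK mice (5 libraries, CK_het_DKO) had both. Crebbp encodes a histone acetyltransferase and Kmt2d a histone H3K4 methyltransferase of enhancers.

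Libraries held 17483706 to 21857738 fragments in peaks. Fragments at the start sites of Kdm5d, Eif2s3y, Uty and Ddx3y, genes of the Y chromosome, numbered 1087 to 1317 in 9 of the 17 libraries and at most 1 in the other 8, although a figure description of the study calls the mice female. The Y signal was found in 2 of 4 WT, 2 of 4 C, 3 of 4 K and 2 of 5 CK libraries, so both kinds were present in each genotype, and values within each kind are given beside the called peaks. Start-site peaks of the B cell list (Bcl6, Fas, S1pr2 and Cd79a) were found for 4 of 4 genes. They summed to 174 to 188 CPM (counts scaled to library size) in WT and 168 to 182 in CK. Cd79a, which is not particular to GC B cells, held 79.7 CPM of this on average in WT. Of 7 myeloid markers, Itgam, Lyz2, Csf3r and S100a8 had no start-site peak, and the other 3 summed to 7.70 to 9.77 CPM in WT and 7.27 to 10.3 in CK. Of 6 T cell markers Cd3d alone had such a peak (26.4 to 30.0 CPM in WT, 21.9 to 32.6 in CK), while 4 of 4 plasma cell markers had one (177 to 183 CPM in WT, 175 to 193 in CK). That sum was mixed. Sdc1 had 31.3 CPM in WT and 36.8 in CK (edgeR, adjusted p = 0.0131), and Jchain 20.1 and 16.5 (0.0205). Irf4 (84.8 and 87.2) and Prdm1 (44.1 and 44.1) were close to WT.

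TLRs are receptors for microbial molecules. Tlr1, Tlr2, Tlr6 and Tlr4 act at the cell surface, where Tlr2 pairs with Tlr1 or Tlr6 to sense lipoproteins and Tlr4 senses lipopolysaccharide. Tlr9 senses unmethylated CpG DNA in endosomes, to which the chaperone Unc93b1 delivers it. Cd180 is a TLR-like surface protein of B cells without a signalling domain of the TLR kind, and Ly86 (MD-1) is the secreted partner that it needs to reach the surface. Most TLRs signal through the adaptor Myd88, which recruits the kinase Irak4 and leads to NF-kB activation. In B cells these receptors add to signals from the antigen receptor.

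Sequences of 5 regions are shown because the results below turn on them. They are the central 300 bases of the 3 peaks that differed between CK and WT, the central 300 bases of the Tlr4 intron peak with the lowest p at that gene, and the 250 bases before the RefSeq start of Tlr9, all 5′ to 3′ on the plus strand of GRCm38. Peak centres were read from the genome, and no base shown overlaps an annotated exon. Capitals mark letters that match a motif searched for, and a sequence without capitals held none of them.
Tlr1 downstream peak, chr5:64908850-64909149: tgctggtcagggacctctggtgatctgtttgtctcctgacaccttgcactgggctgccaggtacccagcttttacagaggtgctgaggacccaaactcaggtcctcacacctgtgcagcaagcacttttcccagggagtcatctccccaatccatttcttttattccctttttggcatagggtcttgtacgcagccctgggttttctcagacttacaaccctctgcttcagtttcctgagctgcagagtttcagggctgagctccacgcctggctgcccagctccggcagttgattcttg
Ly86 intron peak, chr13:37403194-37403493: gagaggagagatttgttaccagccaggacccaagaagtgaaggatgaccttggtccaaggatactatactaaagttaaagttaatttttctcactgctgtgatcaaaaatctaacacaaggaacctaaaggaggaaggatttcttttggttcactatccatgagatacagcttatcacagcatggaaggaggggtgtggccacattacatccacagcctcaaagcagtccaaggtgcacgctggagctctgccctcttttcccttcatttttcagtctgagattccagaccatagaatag
Aldh3b1 start peak in the Unc93b1 window, chr19:3930653-3930952: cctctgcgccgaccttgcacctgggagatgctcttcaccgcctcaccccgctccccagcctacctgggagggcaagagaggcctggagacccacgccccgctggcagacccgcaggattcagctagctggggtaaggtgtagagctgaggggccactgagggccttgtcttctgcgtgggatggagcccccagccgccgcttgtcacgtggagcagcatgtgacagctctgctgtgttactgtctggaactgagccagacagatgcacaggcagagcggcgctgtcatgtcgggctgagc
Tlr4 intron peak, chr4:66843383-66843682: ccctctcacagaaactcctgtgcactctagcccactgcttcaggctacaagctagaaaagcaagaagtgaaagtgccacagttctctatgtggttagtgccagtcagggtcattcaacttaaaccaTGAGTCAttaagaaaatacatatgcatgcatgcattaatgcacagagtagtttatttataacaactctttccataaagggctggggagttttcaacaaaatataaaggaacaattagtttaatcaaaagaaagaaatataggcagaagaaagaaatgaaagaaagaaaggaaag
Tlr9 promoter, chr9:106222348-106222597: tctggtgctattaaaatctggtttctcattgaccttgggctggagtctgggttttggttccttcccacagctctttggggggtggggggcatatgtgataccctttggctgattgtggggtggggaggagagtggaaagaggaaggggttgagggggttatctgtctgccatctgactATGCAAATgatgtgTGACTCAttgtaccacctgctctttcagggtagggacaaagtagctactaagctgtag

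The motifs were searched on both strands, by exact letters with N for any base, in the central 300 bases of every peak. The AP-1 motif TGANTCA was found in 5 of 64 member centres (7.81%) and in 8.93% of all peaks. These were the start-site peak and the shown intron peak of Tlr4, downstream peaks of Tlr9 and Cd180, and an upstream peak of Myd88. Octamer motifs (ATTTGCAT, bound by OCT1 and OCT2) were in 4 members (6.25%, against 4.17% of all peaks), of which 2 were downstream peaks of Tlr1 and 2 were peaks of Cd180. NF-kB motifs (GGANNTTCC) were in 3 members (4.69%, against 3.41%), downstream peaks of Tlr1 and Tlr9 and an upstream peak of Ly86, and the E-box CAGCTG was in 8 members (12.5%, against 17.2%). The ETS motif GAGGAAGT of PU.1 and SPIB was in 2 members (3.12%, against 5.83%) and the STAT motif TTCNNNGAA in 6 (9.38%, against 8.23%). RefSeq promoters were matched for 8 of the 10 genes, all but Tlr4 and Unc93b1. Among those 8, the octamer was found only before Tlr9, against 1.6% of all promoters, and AP-1 only there too, against 6.75%. The STAT motif was found before Tlr1 and Myd88, against 7.02%, and the ETS motif before Tlr1, against 2.44%. A match of letters is a description of these windows and not a binding site.

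Accessibility at the start sites differed between the 10 genes over a wide range. Irak4 had the highest level per length at its start-site peak in WT, 69.7 ± 1.75 CPM per kb of peak (SD, n = 4), higher than 97.9% of the 13947 peaks within 1 kb of a protein-coding start. This peak is shared with Pus7l, whose start lies on the other strand. Unc93b1 (49.9 ± 2.18 CPM per kb, SD, n = 4) and Tlr9 (48.7 ± 0.81, SD, n = 4) came next, and their WT libraries overlapped (48.5 to 53.1 and 47.9 to 49.6). The Unc93b1 value is that of its peak with the most CPM, centred 7.80 kb into the gene and 632 bases from the nearest annotated start. The peak nearest its first start held 38.6 ± 2.87 CPM per kb (SD, n = 4), which would place it after Ly86. Myd88, whose peak also covers the start of Acaa1a, stood at 45.8 ± 0.725 CPM per kb and Ly86 at 41.1 ± 0.757 (SD, n = 4 each). Lower levels were measured at Cd180 (32.1 ± 1.11), Tlr6 (27.4 ± 0.651) and Tlr4 (25 ± 1.41), all in CPM per kb with SD and n = 4. Tlr2 (10.4 ± 0.657 CPM per kb, SD, n = 4) and Tlr1 (7.04 ± 0.134, SD, n = 4) were the least accessible, below the median of 20.6 CPM per kb over coding start sites. Apart from Unc93b1 and Tlr9, no WT library of a gene in this order overlapped those of the next gene. All 10 genes thus had a start-site peak, and per kb of peak those of the signalling and endosomal genes lay above those of the lipoprotein receptors. Without division by length the order differed, with 84.0 CPM in WT at the Tlr6 start (3067 bases) and 76.2 at the Irak4 start (1094 bases).

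**Figure D1:**
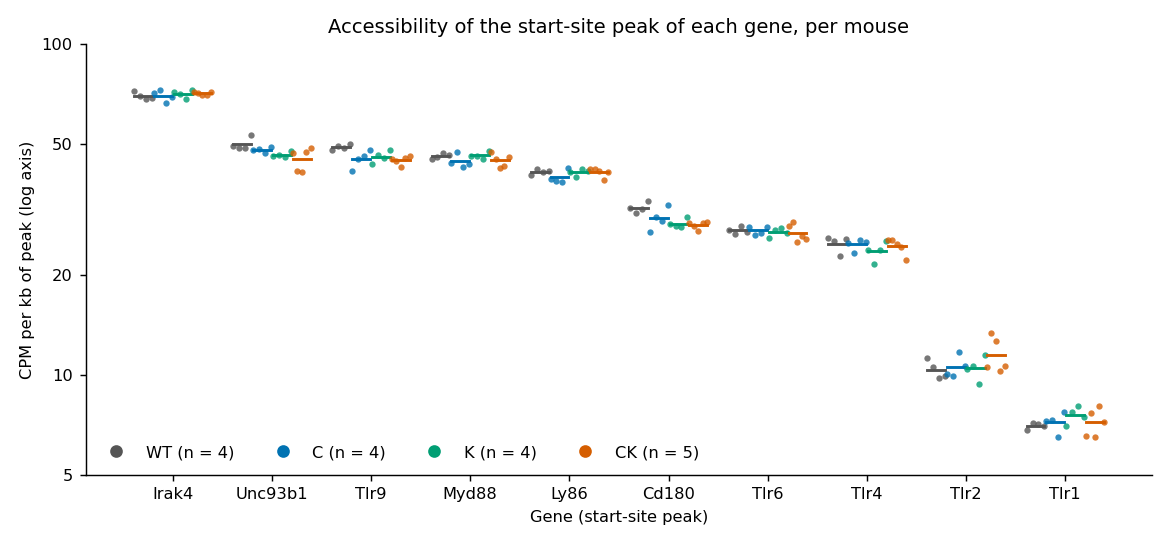
Accessibility of the start-site peak of each gene, in CPM per kb of peak on a log axis, for each mouse (points) of the 4 genotypes with the genotype mean (bar). Irak4 lies highest and Tlr1 lowest, and within each gene the genotypes lie close together.

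The question asked of each mutant genotype was whether the TLR loci opened or closed relative to WT. In CK, 3 of 64 member peaks (4.69%) were called at an adjusted p under 0.01 (edgeR's quasi-likelihood test, adjusted over all 65483 peaks), and the 3 were lower than in WT. Over all peaks 6.84% were called in this comparison, 3.54% higher and 3.3% lower, so the share of members called was no larger than the background. The 3 peaks lay downstream of Tlr1, in an intron of Ly86 and at the start of Aldh3b1 inside the Unc93b1 window. The median log2 fold change of the 64 peaks in CK was -0.037, with 42 peaks below 0 (65.6%), and that of all peaks 0.003, with 49.4% below 0. Leaving out single libraries moved the members' median between -0.067 (without CK replicate 3) and -0.028 (without CK replicate 5), and it was -0.060 without WT replicate 3. The count of 3 called members did not hold when some single libraries were left out. Of 17 such fits, the call was lost in 3 at the Tlr1 peak, 5 at the Aldh3b1 start and 9 at the Ly86 intron peak. The share of all peaks called also fell from 6.84% in the settings that follow. The count was 0 without WT replicate 4 (3.23% of all peaks) and 1 without CK replicate 1, 2 or 4 (4.83%, 5.39% and 5.29%). It was 0 among only libraries with Y signal (0.747%) and 0 among only those without (1.61%). Of the 64 peaks, 25 (39.1%) had their highest WT value in WT replicate 4, against 29.2% of all peaks.

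No member peak was called in C against WT, where 0.16% of all peaks were, or in K against WT, where 1.48% were. At an unadjusted p under 0.05 there were 5 members in C (7.81%, against 8.90% of all peaks), 14 in K (21.9%, against 20.6%) and 19 in CK against WT (29.7%, against 28.9%). Likewise 0 members were called in CK against C (background 1.68%), CK against K (0.00916%), K against C (0.788%) and CK against both single changes added together (0.0107%), with 12, 4, 7 and 1 members at an unadjusted p under 0.05. These were 18.8%, 6.25%, 10.9% and 1.56% of members, against 21.2%, 7.35%, 17.9% and 3.73% of all peaks. DESeq2 called 0 members in each of these 6 comparisons and 4 in CK against WT (8.05% of all peaks). Groups that did not overlap were found for 8 of 64 members (12.5%) in CK against WT, all lower in CK, and for 13% of all peaks, 6.39% lower. The K libraries did not overlap WT at 7 peaks that were lower and 1 that was higher (12.5%, against 11.3% of all peaks), and the C libraries at 2 that were lower (3.12%, against 5.66%).

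**Figure D2:**
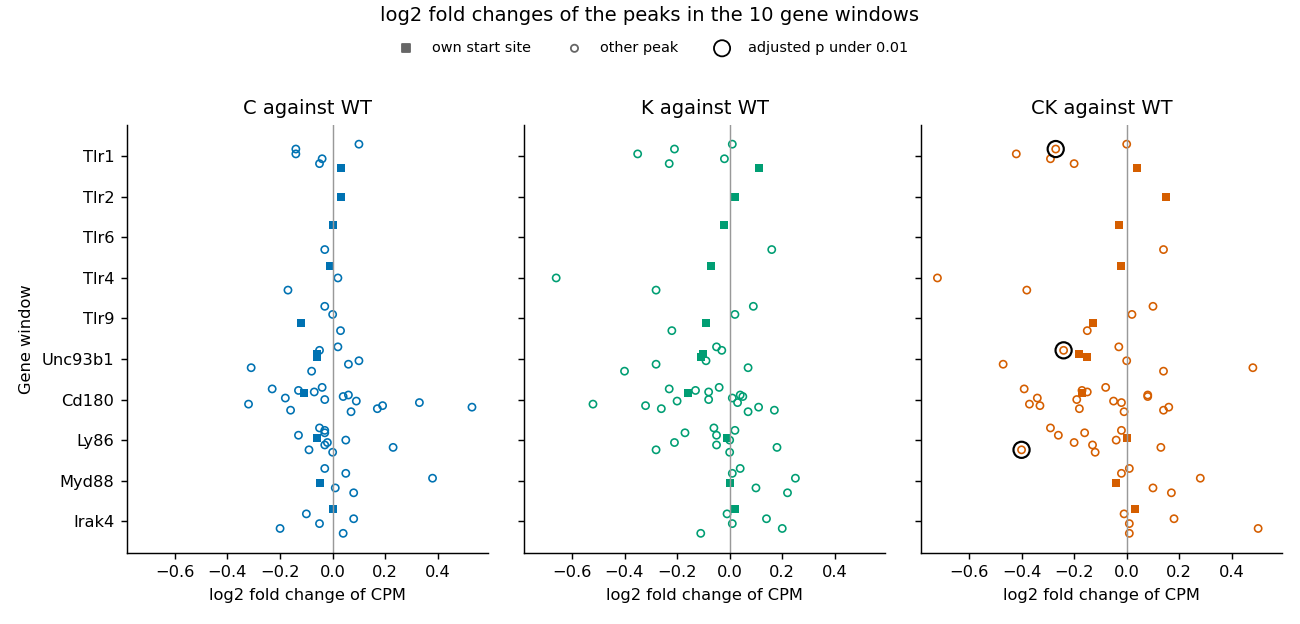
The log2 fold change of CPM against WT is shown for the 64 peaks of the 10 gene windows in C, K and CK, with squares for start sites of the member genes, open circles for other peaks and large circles for peaks with an adjusted p under 0.01. Only CK has large circles, at Tlr1, Unc93b1 and Ly86, and they lie below 0.

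Peaks were also grouped by position. At the 11 start-site peaks of the members, 8 had a negative log2 fold change in CK, with a median of -0.026, and 0 were called. Over all 13947 coding start-site peaks the median was 0.061 in CK and 30.3% were below 0, with 9.47% called higher and 1.05% called lower. These 2 medians are set side by side as a description, since 11 peaks of chosen genes allow no test. At 46 member peaks away from coding starts the median in CK was -0.102 and 33 were below 0, with 2 called lower. All peaks farther than 1 kb from a coding start had a median of -0.029 in CK and 54.6% below 0, with 3.9% called lower. At 7 start sites of other genes inside the windows, 6 had values above 0 in CK and the seventh, at Aldh3b1, was called lower. When counts were rescaled within bins of GC content the order of the 2 member medians turned, to -0.071 at starts (7 of 11 below 0) and -0.056 away from them (26 of 46 below 0). When single libraries were left out, the median at starts ran from -0.048 (without CK replicate 1) to -0.011 (without CK replicate 5).

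Tlr1, the partner of Tlr2 for triacylated lipoproteins, had its most accessible chromatin beyond the 3′ end of the gene rather than at its start. The called peak (chr5:64908321-64909679) lay 24.6 kb from the gene start, past its end. It held 40.2, 36.7, 38.9 and 45.8 CPM in the WT libraries, 37.5, 36.1, 34.5 and 38.0 in C, 34.9, 35.7, 34.5 and 34.2 in the K libraries, and 34.0, 29.8, 32.2, 34.9 and 36.6 in CK. All K and all CK values lay below the lowest WT value, by a small margin in CK replicate 5, and C overlapped WT. In CK the log2 fold change was -0.27 ± 0.062 (SE), with an adjusted p of 0.00416, or 0.830 times the WT level. In K it was -0.21 ± 0.065, with an adjusted p of 0.0532, and in C -0.14 ± 0.064, with an adjusted p of 0.512. Within libraries with Y signal the CK value was -0.17 (adjusted p = 0.241) and within those without it -0.36 (adjusted p = 0.0313). The peak was no longer called without WT replicate 4 (-0.20), CK replicate 2 (-0.23) or CK replicate 3 (-0.26), or when counts were rescaled within bins of GC content (-0.22, adjusted p = 0.0163).

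Of the other 4 downstream peaks of Tlr1, 3 had CK values below WT that did not pass the test. The peak at 10.6 kb held 35.7 CPM in WT, 30.3 in K and 31.2 in CK on average (adjusted p in CK 0.0424), and neither its K nor its CK libraries reached the lowest WT library. At 20.6 kb the log2 fold change in CK was -0.42 (adjusted p = 0.0154), and at 15.2 kb -0.29 (adjusted p = 0.0865). The farthest peak, at 27.5 kb, held 28.3 CPM in both WT and CK. At the start of Tlr1 the CK value was close to WT, 17.9 ± 1.70 CPM (SD, n = 5) against 17.5 ± 0.334 (SD, n = 4), with a 95% interval of the log2 difference from -0.12 to 0.19.

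Tlr2 and Tlr6 did not differ between genotypes by this test. The only Tlr2 peak, at its start, held 13.9 ± 0.877 CPM in WT (SD, n = 4) and 15.4 ± 1.89 in CK (SD, n = 5), a log2 fold change of 0.15 with an interval from -0.03 to 0.33. CK replicates 2 and 3, at 17.9 and 16.9 CPM, exceeded all WT libraries and the others overlapped them. At the start of Tlr6, the partner of Tlr2 for diacylated lipoproteins, WT held 84.0 ± 2.0 CPM (SD, n = 4) and CK 82.5 ± 5.11 (SD, n = 5), with an interval from -0.12 to 0.06. The peak with the lowest p in the Tlr6 window was the start of the neighbouring gene Fam114a1, with 38.8 ± 3.29 CPM in WT and 43.4 ± 2.48 in K (SD, n = 4 each) and 42.7 ± 3.04 in CK (SD, n = 5), and an adjusted p of 0.124 in CK.

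Tlr4 combined a start site near WT levels with intron peaks of lower values. Its start-site peak held 42.6 ± 2.40 CPM in WT (SD, n = 4) and 41.9 ± 2.28 in CK (SD, n = 5), with an interval of the log2 difference from -0.13 to 0.09. The centre of the start-site peak held an AP-1 match, as did that of the intron peak 15.9 kb into the gene, shown above. The intron peak held 5.91, 6.74, 6.70 and 8.42 CPM in WT and 5.32, 4.74, 5.63, 4.78 and 6.28 in CK. CK and WT overlapped there through CK replicate 5 and WT replicate 1, and the highest value was that of WT replicate 4. Its log2 fold change was -0.38 ± 0.120 (SE) in CK with an adjusted p of 0.0278, -0.28 in K (0.18) and -0.17 in C (0.734), so that it was not called. The second intron peak, at 7.87 kb, had few fragments, 1.41 CPM in WT and 0.845 in CK on average, and the lowest log2 fold change of all members in CK, -0.72 (adjusted p = 0.0354). No call was made at Tlr4 in any genotype.

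Tlr9 had the most accessible start of the receptors. Its start-site peak held 104, 107, 105 and 108 CPM in WT, 89.7, 97.6, 99.2 and 104 in C, 94.2, 100, 98.0 and 104 in the K libraries, and 97.8, 96.0, 92.5, 98.4 and 99.6 in CK. All CK libraries lay below all WT libraries, as did the C libraries, with C replicate 4 just under the lowest WT value, while K overlapped WT. The log2 fold changes were -0.12 in C (adjusted p = 0.395), -0.09 in K (0.239) and -0.13 ± 0.042 (SE) in CK (0.0411), and none was called. The downstream peak of Tlr9, at 7.79 kb, held 21.5 CPM in WT and 19.3 in CK, and the 2 peaks at starts of Twf2 held 50.5 and 18.8 CPM in WT and 54.1 and 19.1 in CK.

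Unc93b1, which carries Tlr9 and other nucleic acid receptors to endosomes, had 1 called peak in its window, at the start of a neighbouring gene. The called peak (chr19:3929513-3932093) lay 4.38 kb before the gene start, at the start of Aldh3b1, an aldehyde dehydrogenase gene. It held 42.3, 42.2, 40.4 and 42.9 CPM in WT, 42.4, 40.6, 37.6 and 40.9 in C, 42.5, 45.1, 35.5 and 41.6 in the K libraries, and 34.6, 35.5, 37.2, 33.7 and 36.2 in CK. CK lay below every WT and C library, and overlapped K only through K replicate 3. The log2 fold change in CK was -0.24 ± 0.057 (SE), with an adjusted p of 0.00515, against -0.05 in C (0.854) and -0.03 in K (0.848). The CK change differed from both single changes added together by -0.16 on the log2 scale, with a 95% interval from -0.33 to 0.01 (adjusted p = 1.0). Within libraries with Y signal the CK value was -0.32 (adjusted p = 0.0348), within those without it -0.19 (0.117), and leaving out WT replicate 1, 2 or 4 or CK replicate 1 or 4 ended the call with values from -0.24 to -0.23.

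Of the 2 start-site peaks at Unc93b1 itself, the first covered an annotated start and the other lay 632 bases from the nearest one. The first start-site peak, centred 0.845 kb into the gene, held 77.2, 75.9, 79.0 and 89.0 CPM in WT and 70.2, 70.1, 68.6, 68.3 and 76.9 in CK. WT replicate 4 was high and CK replicate 5 overlapped WT. Its log2 fold change was -0.18 with an adjusted p of 0.0192, and it was not called. The other, at 7.80 kb, fell short of the threshold as well (-0.15 ± 0.048, SE, adjusted p = 0.0359), with 81.5 ± 3.56 CPM in WT (SD, n = 4) and 73.6 ± 5.70 in CK (SD, n = 5), which overlapped through CK replicate 5. In the rest of the window, the upstream peak (68.2 CPM in WT, 66.6 in CK) and the intron peak (9.98 in WT, 9.97 in CK) were close to WT, and the 3 downstream peaks had under 2 CPM.

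Cd180 had the most peaks, and its higher values lay around the start and upstream. The start-site peak held 36.6, 35.5, 36.4 and 38.5 CPM in WT, 31.1, 34.5, 33.4 and 37.5 in C, 32.7, 32.3, 32.2 and 34.3 in the K libraries, and 33.1, 32.4, 31.2, 33.0 and 33.2 in CK. All K and CK libraries lay below all WT libraries, and C overlapped them through C replicate 4. Log2 fold changes were -0.17 ± 0.052 (SE) in CK (adjusted p = 0.025), -0.16 in K (0.0934) and -0.11 in C (0.588), none of them called. Upstream, the peak 3.70 kb before the start, the most accessible of the window, held 70.6 CPM in WT and 62.9 in CK (log2 fold change -0.17, adjusted p = 0.0309), and the peak 11 kb before it 8.29 and 6.33 (-0.39, 0.0323). CK did not overlap WT at either. Of the 17 peaks of Cd180, 13 were below 0 in CK (76.5%). Below 0 were 49.4% of all peaks and 54.6% of those farther than 1 kb from a coding start. An unadjusted p under 0.05 was found at 4 (23.5%, against 28.9%), and 0 were called. The intron peak at 29.1 kb was lower in the K libraries than in all WT libraries (-0.52, adjusted p = 0.0363), with WT replicate 4 at 7.70 CPM and the other WT libraries at 4.65 to 5.53.

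The start of Ly86 was close to WT in CK. The start-site peak held 62.3 ± 1.15 CPM in WT, 60.0 ± 2.73 in C and 62.1 ± 1.37 in K (SD, n = 4 each) and 62.3 ± 1.96 in CK (SD, n = 5), with an interval of the log2 difference in CK from -0.09 to 0.08. The called peak (chr13:37402529-37404160) lay in an intron 58.1 kb from the start. It held 9.63, 8.98, 10.1 and 10.6 CPM in WT, 9.35, 7.89, 10.1 and 9.61 in C, 7.96, 8.72, 7.80 and 7.84 in the K libraries, and 6.55, 7.22, 8.85, 7.57 and 7.09 in CK. All K and CK values lay below the lowest WT value, CK replicate 3 by a small margin, and C overlapped WT. The log2 fold change was -0.40 ± 0.100 (SE) in CK (adjusted p = 0.00833), -0.28 in K (0.114) and -0.09 in C (0.858). The value was -0.41 within libraries with Y signal (adjusted p = 0.113) and -0.41 within those without (0.0913). Leaving out any of WT replicates 1, 3 or 4, C replicate 1, K replicate 3, or CK replicates 1, 2, 4 or 5 raised the adjusted p above 0.01, with values from -0.41 to -0.36, as did rescaling within bins of GC content (-0.32, 0.0249). Of the 11 peaks of Ly86, 10 were below 0 in CK (90.9%), with a median of -0.132. Below 0 were 49.4% of all peaks and 54.6% of those farther than 1 kb from a coding start.

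**Figure D3:**
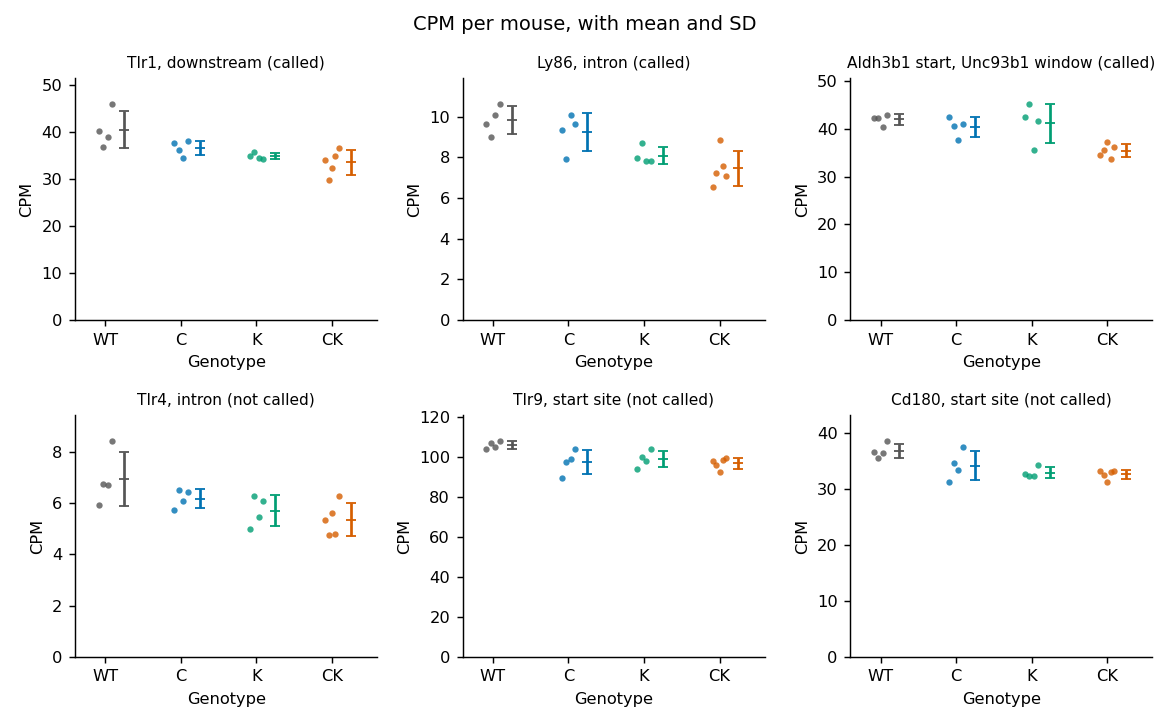
CPM of 6 peaks in each mouse (points) by genotype, with mean and SD beside the points; the upper row holds the 3 called peaks and the lower row the Tlr4 intron and the Tlr9 and Cd180 start sites. CK values lie below WT values without overlap in 5 of the panels, and overlap in the Tlr4 panel.

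Start-site peaks of resting B cell markers also differed between genotypes. Start-site peaks of Cd38, Fcer2a and Ccr7, found for 3 of 3 genes, summed to 48.5 to 53.3 CPM in WT, 43.8 to 49.5 in C, 36.2 to 42.7 in K and 38.8 to 42.8 in CK. Neither K nor CK overlapped WT, and 0 member peaks were called in K. The list was uneven, since by edgeR Fcer2a (CD23) alone was called in CK, and lower (28.5 CPM in WT, 17.3 in CK, log2 fold change -0.71, adjusted p = 8.82e-05). Ccr7 was at 9.37 CPM in WT and 7.14 in CK (-0.39, adjusted p = 0.0186). Cd38 went the other way, at 13.5 CPM in WT and 16.4 in CK (0.28, adjusted p = 0.0249). The part of these cells in the values of Tlr1, Cd180 and Ly86 was not tested, and fewer cells of a type cannot be told apart from less accessible DNA per cell in sorted bulk libraries.

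Myd88 and Irak4, the shared signalling arm, had starts that did not differ from WT by this test. At the Myd88 start, 109 ± 1.72 CPM were measured in WT (SD, n = 4) and 106 ± 4.92 in CK (SD, n = 5), with an interval of the log2 difference from -0.13 to 0.04. At the Irak4 start the values were 76.2 ± 1.91 (SD, n = 4) and 77.6 ± 1.06 CPM (SD, n = 5), with an interval from -0.05 to 0.11. The lowest p in the Myd88 window belonged to the start of Xylb, 16.4 kb before Myd88, where all K libraries (30.7 to 35.6 CPM) lay above all WT libraries (27.2 to 29.3). Its log2 fold change was 0.22 in K (adjusted p = 0.0413) and 0.17 in CK (0.0628). In the Irak4 window the lowest p in CK was at a downstream peak of 0.779 CPM in WT and 1.10 in CK (0.50, adjusted p = 0.211). In these 2 windows 9 of 12 peaks were above 0 in CK, as were 50.6% of all peaks and 69.7% of those at coding starts, and none was called.

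**Figure D4:**
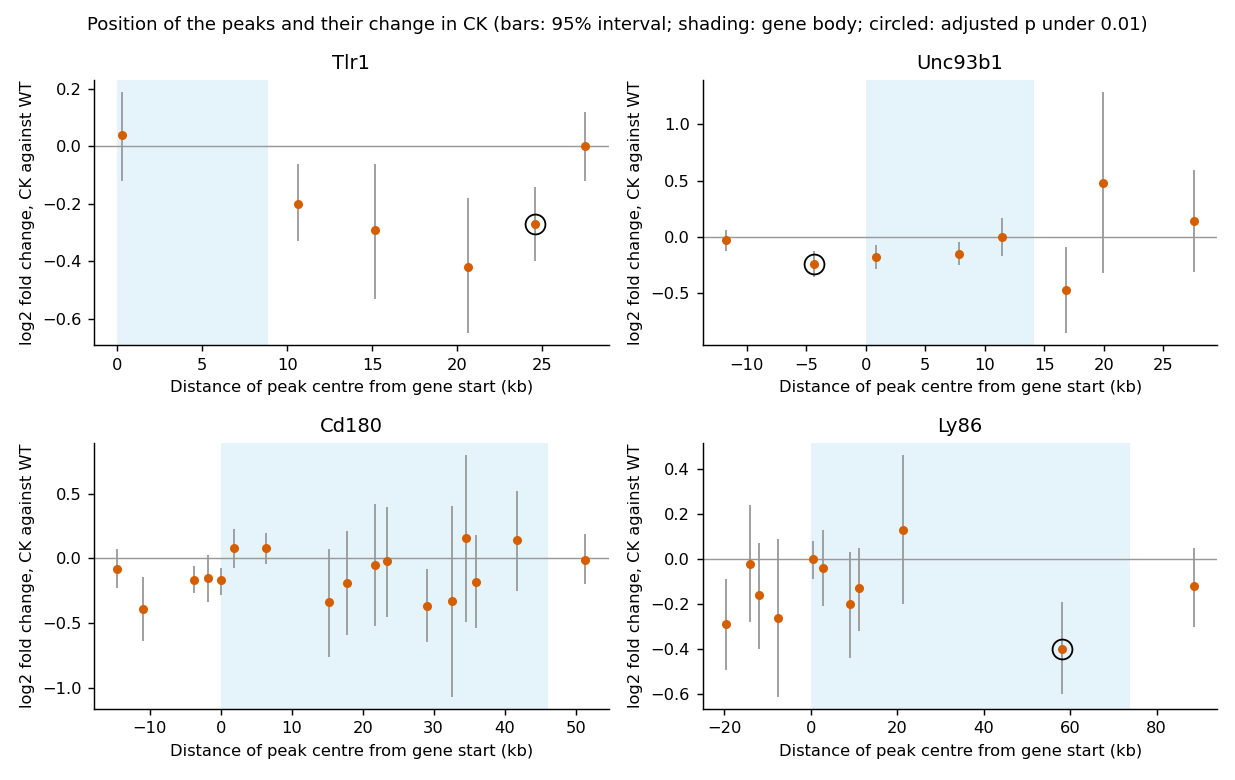
The log2 fold change of each peak in CK against WT, with its 95% interval, is plotted against the distance of the peak's centre from the gene start in kb, for Tlr1, Unc93b1, Cd180 and Ly86; the gene body is shaded and called peaks are circled. Lower values lie downstream of Tlr1, around the start of Unc93b1, upstream and at the start of Cd180, and deep in Ly86, while the starts of Tlr1 and Ly86 lie near 0.

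Fragments were then summed over all peaks of each window, and the same was done for the windows of 17156 protein-coding genes that held a peak. In CK, 2 of the 10 windows were called lower at an adjusted p under 0.01 (edgeR, adjusted over 17156 windows), where 11.8% of all windows were called, 8.56% higher and 3.26% lower. Tlr1 windows held 133, 131, 136 and 149 CPM in WT and 118, 122, 119, 125 and 129 in CK, all below WT (log2 fold change -0.16 ± 0.037, SE, adjusted p = 0.00362). Unc93b1 windows held 283, 276, 280 and 302 CPM in WT and 260, 257, 251, 259 and 270 in CK, all below WT (-0.14 ± 0.034, SE, adjusted p = 0.00528), the Aldh3b1 start included. WT replicate 4 was the highest WT library in both, and without it neither window was called (6.66% of all windows). The same held without CK replicate 3 (10.6%), and 1 of the 2 was called without CK replicate 1, 2 or 4 (8.84%, 11% and 9.59%). None was called within libraries with Y signal (2.06%) or within those without (4.45%).

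The other 8 windows were not called in CK. Cd180 was at 233 ± 7.50 CPM in WT (SD, n = 4) and 217 ± 6.11 in CK (SD, n = 5), without overlap (adjusted p = 0.0553), and Ly86 at 173 ± 5.72 (SD, n = 4) and 163 ± 9.29 (SD, n = 5), with an adjusted p of 0.104. The intervals of the log2 difference ran from -0.12 to 0.01 at Tlr9, from -0.18 to 0.02 at Tlr4, from -0.04 to 0.09 at Tlr6, from -0.05 to 0.07 at Myd88, from -0.04 to 0.09 at Irak4 and from -0.03 to 0.33 at Tlr2. In C 0 of 10 windows were called (background 0.332%), with 0 at an unadjusted p under 0.05 by edgeR and 1 by DESeq2. In K 0 were called (background 2.95%), with 3 at an unadjusted p under 0.05 by either tool, and DESeq2 called 0 in both comparisons. The Tlr1 window in K, at 126 ± 4.18 CPM (SD, n = 4), did not overlap WT (log2 fold change -0.13, adjusted p = 0.0444).

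**Figure D5:**
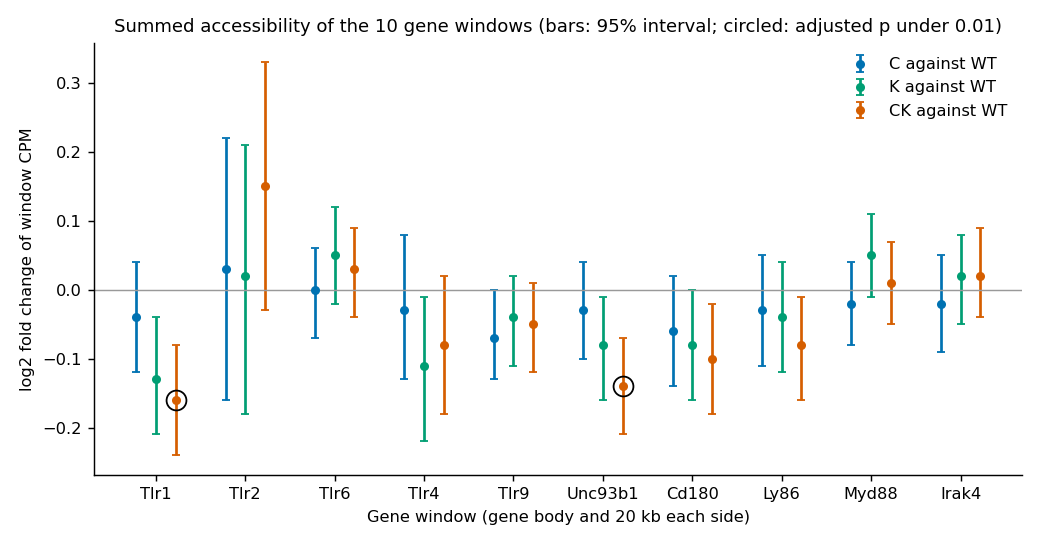
The log2 fold change of the summed CPM of each gene window against WT is plotted for C, K and CK with its 95% interval, and called windows are circled. Tlr1 and Unc93b1 in CK are circled at -0.16 and -0.14, and the intervals of Tlr2, Tlr6, Tlr9, Myd88 and Irak4 include 0 in all 3 genotypes.

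The wider pathway was covered by 32 further genes, of which 31 had a peak in their window and Tlr11 had none. In CK 1 was called higher and 1 lower (6.45%, against 11.8% of all windows), both among the 6 other receptors, and 0 were called among 2 co-receptors, 3 chaperones and transporters, 4 adaptors, 8 kinases and ubiquitin ligases, 3 transcription factors and 5 inhibitors. In C and K 0 of 31 were called. Tlr5, the flagellin receptor, had windows of 19.1, 16.9, 18.6 and 17 CPM in WT and 23.8, 28.3, 23.1, 24.3 and 25.2 in CK, all above WT (log2 fold change 0.48 ± 0.077, SE, adjusted p = 0.000139). Tlr7, an endosomal receptor of single-stranded RNA carried by Unc93b1, held 16.9, 17.3, 18.8 and 21.5 CPM in WT and 12.7, 13.9, 15.7, 14.2 and 14.3 in CK, all below WT (-0.40 ± 0.086, SE, adjusted p = 0.00189). Tlr7 lies on chromosome X, and its mean in libraries with Y signal was 17.1 CPM in WT and 13.5 in CK, and in those without 20.2 and 14.6. With the Y signal at start sites as a covariate the Tlr7 window had an adjusted p of 0.000406, and with the log2 CPM of all chromosome Y peaks 0.0576 (log2 fold change -0.35). The CPM of all chromosome Y peaks itself had a median of 278 in WT and 531 in CK. Within libraries with Y signal the adjusted p of the Tlr7 window was 0.0818 (-0.36), and within those without 0.013 (-0.46). Without WT replicate 4, the highest library, it was 0.0151 (-0.32), so that the call was lost in these 4 settings. The Tlr5 call was lost within libraries with Y signal (0.41, adjusted p = 0.0249) and kept within those without (0.52, adjusted p = 0.00675). Sarm1, an inhibitor of TLR adaptors, had the next lowest p (0.16 ± 0.044, SE, adjusted p = 0.0112), with 114 to 122 CPM in WT and 124 to 139 in CK.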

How the data were processed

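GC B cells were profiled by ATAC-seq in 17 libraries of 4 genotypes. The authors ran the reads through nf-core's ATAC-seq workflow (1.2.1) on mm10 and deposited raw fragment counts for its consensus peaks, made by featureCounts 2.0.1, in which a fragment counted for a peak when at least 0.2 of it overlapped. The 7 sorted CB and CC samples of the 24 in the series were not analysed here.

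Here, peaks were assigned to GENCODE M21 genes (gene body and 20 kb on each side), and peaks within 1 kb of an annotated start were called start-site peaks. Counts of all 65483 peaks were normalized with TMM factors and tested with edgeR 4.0.16 (quasi-likelihood test, R 4.3.3), all 17 libraries together with 1 coefficient per genotype and no covariate, with Benjamini-Hochberg adjustment at 0.01. A filter of 10 counts over the libraries removed none of the 65483. CPM are counts scaled to the TMM library size, and gene windows were summed and fitted likewise. The scripts were tested on simulated data. Libraries of 17483706 to 21857738 fragments limit precision at peaks of few CPM. SE and intervals come from the fit, and p-values measure the spread between libraries, 1 per mouse.

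Peaks described in full were the start-site peak of each gene (the one with the most CPM), called peaks, and, for genes without a call, the peak with the lowest p in CK against WT; other peaks were added after their values were seen. Of the other pathway genes, the 3 with the lowest adjusted p in CK against WT were named. Alternatives covered DESeq2 1.42.0, other scalings, filters, thresholds, windows of 5 and 50 kb, a replicate block, Y covariates and leaving out each library; the Y start-site covariate and the split by Y signal were chosen after seeing the data. The member genes and lists were chosen with earlier results of these data known. Pairing by replicate number was read from the data: all 4 same-number pairs of C and WT had a correlation of deviations above 0.1 (0.14 to 0.224), which was not so for the other genotype pairs. Those same-number pairs of C and WT also shared the presence or absence of Y signal. Pairs of C and WT with other numbers but the same Y status ran from 0.059 to 0.166. Number and Y signal thus cannot be fully told apart there. The block left 0 members called in C against WT. Some marker genes of the B cell lists are not reported here, and the sums of those lists leave them out.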

Additional observations from a re-analysis of the deposited data

Results flagged for a closer look

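In the 108 groups of 4 or 5 libraries examined (the peaks described in full and the 10 gene windows in each genotype), 2 had a library far from the others by Dixon's gap test, where chance gives about 1 in 20. Both were at the start-site peak of Ly86. In C, replicate 4 held 64.0 CPM and the other libraries 58.3 to 59.2. In CK, replicate 4 held 58.9 CPM and the others 62.5 to 63.8.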

How the results depend on the processing

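The count of 3 member peaks called in CK against WT was 14 at an adjusted p under 0.05 (15.4% of all peaks), 0 with a log2 fold change above log2(1.5) added, 0 with the log2 CPM of all chromosome Y peaks as a covariate, which also took all peaks called from 4478 to 715, 5 with the Y signal at start sites as a covariate (8.45% of all peaks), 0 within libraries with and 0 within libraries without Y signal, and 1 when only the genotypes compared were fitted. It ranged from 0 to 3 when each library was left out in turn, and from 2 to 4 under the other settings apart from the replicate block. At an adjusted p under 0.05, 3 member peaks were called in K against WT (5.38% of all peaks) and 1 in CK against C (6.68%), and with offsets within 20 GC content bins 1 in CK against C (0.922%). The 2 windows called in CK became 0 with a log2 fold change above log2(1.5) (1.99% of all windows), with windows of 50 kb (11.6%) and with the chromosome Y covariate (3.09%). They also became 0 within libraries with (2.06%) or without Y signal (4.45%), and 0 to 2 when each library was left out. At an adjusted p under 0.05, 1 window was called in K (9.77% of all windows). The 6 other peak comparisons, and the windows in C and in K against WT, stayed at 0 when libraries were left out. In these cases the cause was not tested, apart from fewer samples where libraries were left out.

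Of 544 values recomputed for the peaks described in full in CK against WT, 14 changed sign, none of them at the 3 called peaks. When each library was left out the value ranged from -0.0099 to 0.07 at the Tlr1 start, from -0.06 to 0.01 at the Tlr4 start and from -0.01 to 0.02 at the Ly86 start. At the Tlr1 start it was -0.0099 without CK replicate 4, and at the Tlr2 start -0.08 within libraries with Y signal. GC content bins gave 0.05 at the Tlr6 start, 0.03 at the Tlr4 start and -0.07 at the Irak4 start, which was -0.01 within libraries with Y signal. The Tlr4 start was 0.01 with the replicate block, 0.0045 within libraries without Y signal and 0.01 without CK replicate 5. Values at the Ly86 start were 0.0063 with total counts, 0.01 within libraries without Y signal, 0.0081 without WT replicate 2, 0.0017 without WT replicate 4 and 0.02 without CK replicate 4. The correlation of deviations from the genotype means was above 0.1 in 12 of 24 pairs with the same replicate number (median 0.1, range -0.093 to 0.224) and in 15 of 84 other pairs (median -0.009), and 10 of 17 libraries correlated best with their own number, which is a hint from the data and not from the design. Same-number pairs that shared the presence or absence of Y signal ran from 0.054 to 0.224. Same-number pairs that differed in it ran from -0.093 to 0.092. Among pairs with other numbers the highest value was 0.274 where Y signal was shared and 0.147 where it was not. Whether the hint comes from the number or from the Y signal was not tested. With a replicate block 6 member peaks and 6607 of all peaks (10.1%) were called in CK, and no other count of called members changed. Replicate number 5 occurs only in CK, so with the block CK replicate 5 adds nothing to the comparison with WT.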
